A study of Mus musculus with 4 samples.

Results

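Cells use glucose by passing it through the enzymes of glycolysis to pyruvate, and low oxygen turns up the genes of this path together with a wider hypoxia response. The 34 genes described here cover both: 16 glycolytic enzymes from hexokinase to lactate dehydrogenase (Hk1, Hk2, Gpi1, Pfkl, Pfkm, Pfkp, Aldoa, Aldoc, Tpi1, Gapdh, Pgk1, Pgam1, Eno1, Pkm, Ldha and Ldhb), 2 glucose transporters (Slc2a1 and Slc2a3), a lactate exporter (Slc16a3), 3 kinases that set the flow of carbon (Pfkfb3, Pfkfb4 and Pdk1), and 12 further genes known to respond to hypoxia (Bnip3, Ankrd37, Egln1, Egln3, Hilpda, Ndrg1, Adm, Higd1a, Ero1l, P4ha1, P4ha2 and Bhlhe40). They were chosen by symbol, and all 34 were found among the 31053 features of the deposited matrices. Single-cell RNA was measured in epiphyses of the femur and tibia, where long bones end, with their articular cartilage, growth plate cartilage and marrow. One group, called control here, was wild type, and the other, called mutant, carried floxed Sox9 alleles with AcanCreERT2/+ (Sox9fl:fl AcanCreERT2/+). CreERT2 is a recombinase that acts after tamoxifen, and here it is driven from Acan, a gene of cartilage cells. Each genotype was sampled at postnatal day 13 and day 19 as 1 library, so there are 4 libraries and no replicates. Not stated in the labels are the strain, the tamoxifen schedule, the floxed exons and how many mice made up a library.

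Cartilage has few or no blood vessels, and its cells are known to live at low oxygen and to draw much of their energy from glycolysis. In hypoxia the prolyl hydroxylases Egln1 and Egln3 no longer mark the factor HIF-1α (gene Hif1a) for removal, and HIF-1 then binds the core letters ACGTG or GCGTG of the hypoxia response element near its target genes. Many targets are glycolytic genes, and others are prolyl hydroxylases of collagen, on which cartilage cells depend for secreting matrix. Sox9 is the main transcription factor of cartilage cells.

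The core of the hypoxia response element was searched in RefSeq promoter windows (GRCm38.p6), which run from 250 bases before to 50 bases after each annotated start, as ACGTG and GCGTG on both strands. Of the 34 members 31 had a window. Of these 31 genes 29 (93.5%) held ACGTG or GCGTG in at least 1 window, against 46.7% of 27025 genes in the table. ACGTG was in 71.0% of member genes against 21.8% of all genes, and GCGTG in 74.2% against 35.2%. The members had 45 windows in all, and some genes have several starts. Counted by window, 84.4% of these 45 held ACGTG or GCGTG, against 43.8% of 32851 windows of all genes. The list was made of glycolytic and hypoxia-response genes beforehand, so the higher share is a description. Gpi1 and Tpi1 were the members without a match in these windows. A match is a description of letters, and no binding was measured. The 250 bases before the start are printed for the 6 members with a match and the largest changes between genotypes, with both motifs in capitals on whichever strand they were found. CACGT and CACGC are ACGTG and GCGTG read on the opposite strand. The positions are chr8:45999851-46000100 (minus strand) for Ankrd37, chr2:11553930-11554179 (minus strand) for Pfkfb3, chr6:82774455-82774704 (minus strand) for Hk2, chr11:78322823-78323072 (plus strand) for Aldoc, chr12:54203875-54204124 (minus strand) for Egln3, chr11:54100674-54100923 (plus strand) for P4ha2. Each sequence reads 5′ to 3′ on the gene's own strand:
Ankrd37: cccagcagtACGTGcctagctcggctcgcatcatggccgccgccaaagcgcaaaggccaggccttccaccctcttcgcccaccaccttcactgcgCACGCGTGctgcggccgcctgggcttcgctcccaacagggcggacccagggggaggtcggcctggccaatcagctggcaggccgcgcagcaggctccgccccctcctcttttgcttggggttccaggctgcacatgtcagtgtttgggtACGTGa
Pfkfb3: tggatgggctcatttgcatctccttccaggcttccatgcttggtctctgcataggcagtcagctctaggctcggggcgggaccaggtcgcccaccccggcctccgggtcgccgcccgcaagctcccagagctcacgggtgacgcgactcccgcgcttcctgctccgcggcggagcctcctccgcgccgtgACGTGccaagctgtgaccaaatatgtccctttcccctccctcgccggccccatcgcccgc
Hk2: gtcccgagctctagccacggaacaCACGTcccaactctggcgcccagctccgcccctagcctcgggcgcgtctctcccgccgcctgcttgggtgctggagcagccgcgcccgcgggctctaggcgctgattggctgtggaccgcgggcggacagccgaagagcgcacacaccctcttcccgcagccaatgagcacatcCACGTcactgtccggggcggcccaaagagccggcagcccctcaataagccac
Aldoc: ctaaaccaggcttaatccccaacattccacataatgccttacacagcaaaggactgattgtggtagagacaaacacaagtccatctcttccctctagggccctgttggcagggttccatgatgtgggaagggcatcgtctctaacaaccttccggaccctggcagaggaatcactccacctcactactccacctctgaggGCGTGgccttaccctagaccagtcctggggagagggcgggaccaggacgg
Egln3: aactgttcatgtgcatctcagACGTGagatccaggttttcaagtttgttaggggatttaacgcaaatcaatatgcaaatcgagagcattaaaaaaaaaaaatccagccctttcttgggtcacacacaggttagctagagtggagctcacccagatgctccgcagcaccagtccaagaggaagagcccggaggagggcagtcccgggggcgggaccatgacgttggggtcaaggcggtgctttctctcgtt
P4ha2: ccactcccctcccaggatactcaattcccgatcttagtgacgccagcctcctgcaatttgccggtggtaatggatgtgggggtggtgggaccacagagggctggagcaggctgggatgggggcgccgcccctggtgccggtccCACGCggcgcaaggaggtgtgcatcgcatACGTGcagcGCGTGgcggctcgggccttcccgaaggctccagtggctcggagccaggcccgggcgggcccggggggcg
In Ankrd37 the capitals hold 4 matches, and the middle pair overlaps as CACGCGTG, which reads as GCGTG on both strands. Their first bases lie 241, 155, 152 and 6 bases before the start. Pfkfb3 and Aldoc each have 2 windows with a match, of which 1 is printed. The printed Pfkfb3 window has 1 match, 60 bases before the start. Hk2 has 2, both on the opposite strand, 226 and 52 bases before it. In its printed window Aldoc has 1 GCGTG, 50 bases before the start, and Egln3 has 1 ACGTG, 229 bases before it. P4ha2 has 3 within a short stretch, 107, 78 and 69 bases before the start. Of these 6 genes 4 rose in mutant cells and 2 (Aldoc and P4ha2) fell. They were printed because they held a match, so no link between the letters and the direction of change can be read from them. Slc2a3, Ndrg1 and Bhlhe40, which also rose, had no window.

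The libraries held between 70507107 and 76080803 UMIs (unique molecular identifiers, 1 for each captured RNA molecule). After filters 6219 and 7104 control cells at days 13 and 19 and 7285 and 9655 mutant cells remained, in 27 clusters. Between 19 and 44 cell barcodes were shared by any pair of libraries. Cells called chondrocyte-like numbered 4289 and 1063 in controls and 3143 and 2975 in mutants, and they hold 7 clusters. All listed chondrocyte markers found among the features had UMIs in them in every library. Their Sox9 level was 358 and 460 counts per 1000000 UMIs (CPM) in controls and 195 and 171 CPM in mutants at days 13 and 19. The reads come from the 3′ end of transcripts, so this is no direct check of the deletion. The clusters did not fill evenly: cluster 11 (led by Ppa1, Il17b and Panx3) had 986 and 275 control but 13 and 6 mutant cells. Clusters 4 (led by Myoc and Pi15) and 15 (led by Cryba2 and Mmp13) had 1556 and 1482, and 686 and 469, mutant cells, but 22 and 11, and 34 and 12, control cells. Clusters 0 (Prg4 and Cilp), 2 (Frzb and Matn1), 8 (Pcp4, Ucma and Sfrp5) and 20 (cell cycle genes) held at least 123 cells of every library. A value for all chondrocyte-like cells therefore compares different mixtures, and values within shared clusters are given after it. Within shared clusters, too, control and mutant cells differed in marker levels. Clusters 0, 4, 15 and 20 had 2, 0, 1 and 0 chondrocyte markers among their leading genes and were put in the class by the number of such markers above blood clusters (19, 22, 20 and 24), a count that was 13 in the fibroblast-like cluster 6. The 28 chondrocyte markers summed to 35221 and 40538 CPM in mutant cells of cluster 4 and to 20527 and 20547 CPM in those of cluster 15, against 116406 and 114843 CPM in mutant cells of cluster 2 and 13473 and 13843 CPM in those of cluster 6. The 13 fibroblast and tendon markers summed to at most 6485 CPM in mutant cells of clusters 4 and 15, and to 21380 and 24506 CPM in those of cluster 6. Clusters 4 and 15 are thus named less firmly than cluster 2, and they held 71.3% and 65.6% of mutant but 1.31% and 2.16% of control chondrocyte-like cells. With 1 library per genotype and age, intervals reflect counting error alone. What a p-value measures here is the agreement of the genotype effect at the 2 ages, with a dispersion that genes share, and not the spread between mice.

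As a sum, the members were higher in chondrocyte-like cells than in the blood, fibroblast-like and endothelial-like classes in every library. Summed over all 34, they made up 0.852% and 0.967% of UMIs in control chondrocyte-like cells at days 13 and 19, and 0.872% and 0.930% in mutant ones. The groups overlapped. In clusters 3 and 9, which carried markers of both osteoblasts and chondrocytes, the sum was 0.662% and 0.899% in the few control cells (122 and 73) and 1.07% and 1.04% in 1444 and 837 mutant cells. Neutrophil-like cells had 0.593% to 0.670% over the 4 libraries, and myeloid progenitor-like cells had 0.665% and 0.595% in the 2 libraries with enough cells. The ranges of these 2 classes overlap, and the mixed control cells at day 13 lie within both. Monocyte-like cells stood at 0.490% to 0.563%, fibroblast-like cells at 0.403% to 0.482%, macrophage-like cells at 0.410% to 0.450% and endothelial-like cells at 0.347% to 0.383%. B cell-like cells (0.241% to 0.325%) came below them, and erythroid-like cells were lowest with 0.0359% to 0.0869%. Fibroblast-like and macrophage-like cells could not be ordered, since their ranges overlap.

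**Figure D1:**
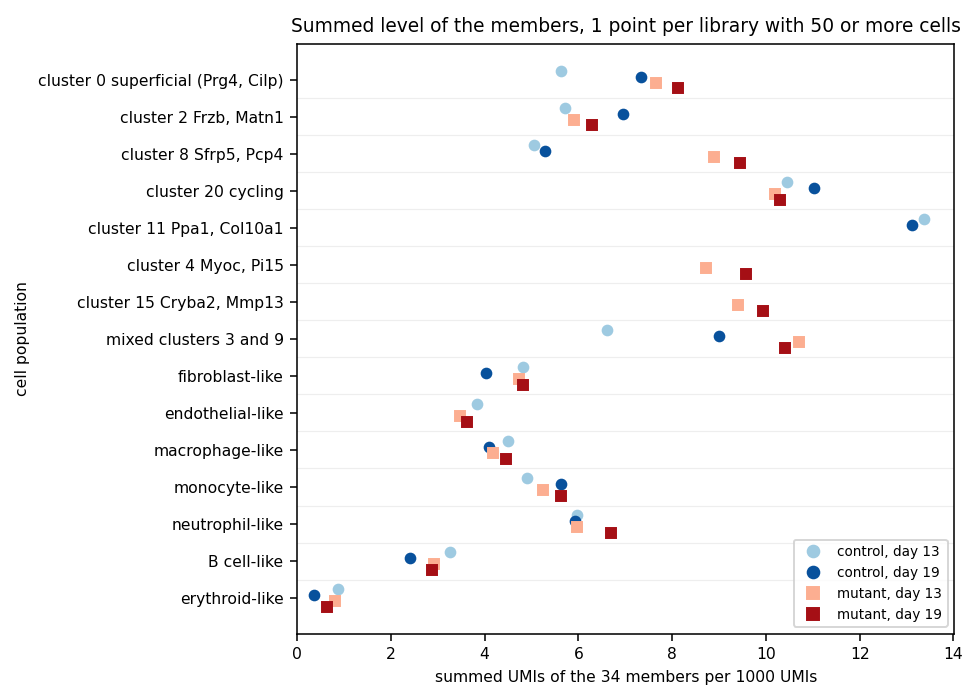
Summed UMIs of the 34 members per 1000 UMIs (x axis, linear, from 0) in each cell population (y axis), with 1 point for each library that had 50 or more cells (circles control, squares mutant). Control cells of cluster 11 lie farthest right, erythroid-like cells farthest left, and in cluster 8 both mutant points (0.889% and 0.945% of UMIs) lie to the right of both control points (0.506% and 0.528%).

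Within cartilage the sum differed from cluster to cluster. It was highest in cluster 11, where control cells had 1.34% and 1.31% at days 13 and 19. Cycling cluster 20 came next with 1.05% and 1.10% in controls and 1.02% and 1.03% in mutants. Clusters 15 and 4, made almost wholly of mutant cells, had 0.941% and 0.994%, and 0.873% and 0.957%. Cluster 2 had 0.571% and 0.696% in controls and 0.591% and 0.629% in mutants. In cluster 0 the sum was 0.563% and 0.734% in controls and 0.767% and 0.812% in mutants, with both mutant libraries above both controls. In control cells cluster 8 was the lowest of the chondrocyte-like clusters with 0.506% and 0.528%, whereas its mutant cells had 0.889% and 0.945%. Clusters were made from these same cells, although only 3 members (Adm, Slc16a3 and Slc2a3) were among the variable genes used, so the order is a description.

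Single members did not all follow the sum. Ldha, which turns pyruvate into lactate, was at 1737 and 1627 CPM in control cluster 11 and at 398 and 424 CPM in control cluster 8. Pgk1, a kinase that yields ATP, was at 1114 and 949 CPM in control cluster 11 against 289 and 237 CPM in control cluster 8. Ldhb, the other lactate dehydrogenase, ran the other way, with 33.7 and 22.9 CPM in control cluster 11 and 120 and 102 CPM in control cluster 8. Hk2, a hexokinase that traps glucose inside the cell, was highest in mutant cluster 15, at 278 and 404 CPM. Pfkfb3, which makes the activator of phosphofructokinase, was likewise highest there among chondrocyte-like clusters, at 70.5 and 134 CPM. Egln3 was highest among them in cluster 0, with 10.3 and 10.1 CPM in controls and 22.03 and 27.7 CPM in mutants.

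**Figure D2:**
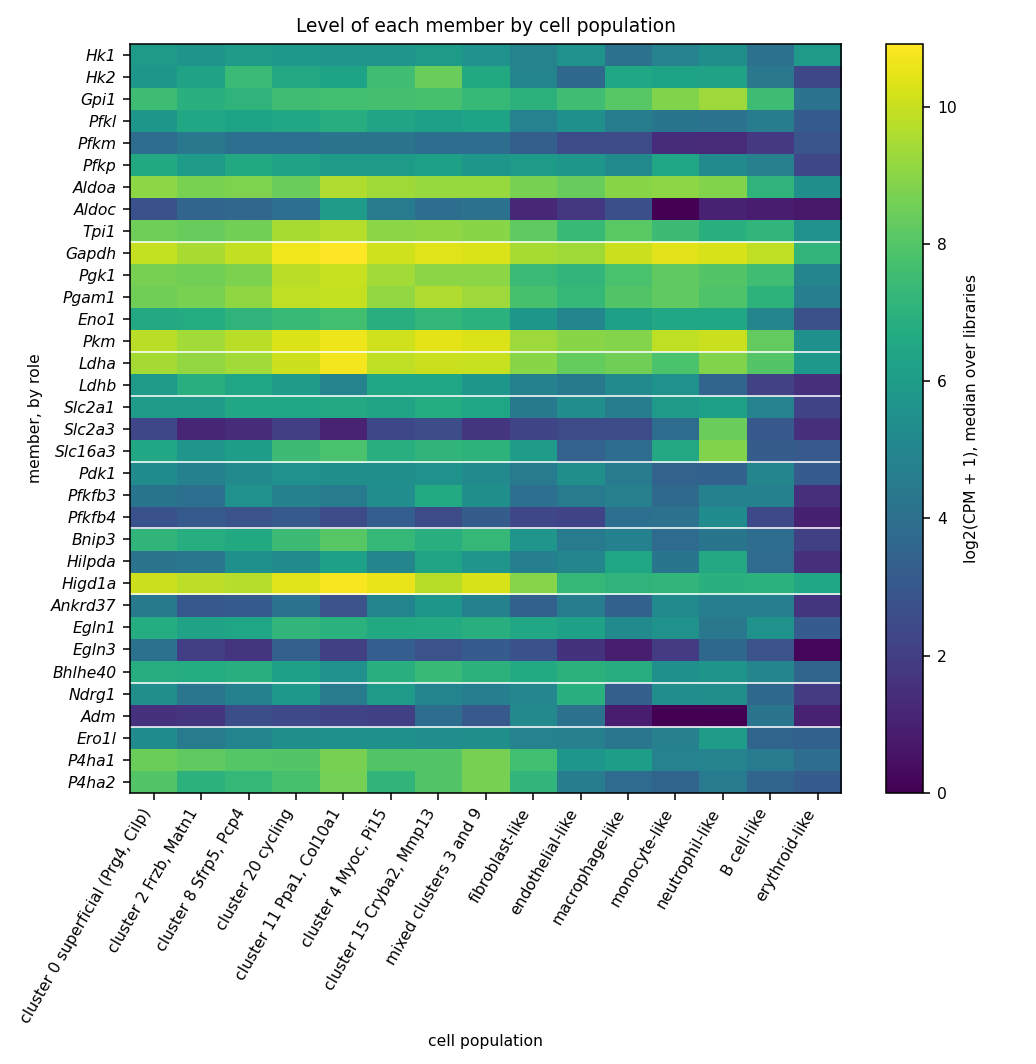
Level of each member (rows, by role) in each cell population (columns), as the colour-coded median over libraries of log2(CPM + 1). Most enzymes are brightest in cartilage columns, while Slc2a3, Slc16a3 and Pfkfb4 are brightest in neutrophil-like cells and Adm in fibroblast-like cells.

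Some members were higher in other classes than in chondrocyte-like cells. Slc2a3, a high-affinity glucose transporter, stood between 207 and 394 CPM in neutrophil-like cells and between 1.56 and 5.45 CPM in chondrocyte-like cells. Slc16a3, the transporter that carries lactate out of glycolytic cells, had a median over libraries of 462 CPM in neutrophil-like cells and of 119 CPM in chondrocyte-like cells. Gpi1, which turns glucose 6-phosphate into fructose 6-phosphate, had medians of 830 CPM in myeloid progenitor-like cells and 639 CPM in neutrophil-like cells. Adm, the secreted peptide adrenomedullin, was highest in fibroblast-like cells, at up to 43.97 CPM. Ndrg1, a gene known to be turned on by hypoxia in many cells, had its highest class median, 121 CPM, in endothelial-like cells.

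Between genotypes, 7 of the 34 members rose and 4 fell in mutant chondrocyte-like cells by the edgeR quasi-likelihood test at an adjusted p of 0.05. Over all 15083 genes tested, 11.6% rose and 10% fell by the same rule, against which the 7 and 4 of 34 are to be read. The genes that rose were Hk2, Pfkfb3, Slc2a3, Egln3, Ankrd37, Ndrg1 and Bhlhe40, and those that fell were Pfkl, Aldoc, Bnip3 and P4ha2. The median log2 change of the members was -0.13, against 0.015 for all genes tested. Without clusters 4 and 15, 5 rose and 4 fell, where 9.66% of genes rose and 8.31% fell, and Hk2 and Slc2a3 no longer passed. In clusters 2, 8 and 11 alone, which were named from their leading genes, 5 rose and 8 fell, where 9.48% of genes rose and 7.19% fell. There Slc2a3 and Egln3 did not pass, and Tpi1, Gapdh, Ldha and Slc16a3 joined those that fell. This pool, too, is a different mixture by genotype. Cluster 11, where the members' sum was highest, gave it 986 and 275 control but 13 and 6 mutant cells. The part of that cluster in these falls was not tested. Among the 16 enzymes only Hk2 rose in the class as a whole, Pfkl and Aldoc fell, and 13 did not pass, with a median of -0.25. Plain ratios of CPM run higher than these scaled values: the median over all genes tested was 0.27 at day 13 and 0.12 at day 19 on the log2 scale. Plain ratios of the members are to be read relative to those shifts.

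Among the transporters, Slc2a1, the widespread glucose transporter, had 69.2 and 87.2 CPM in controls and 71.9 and 103 CPM in mutants at days 13 and 19, and it did not pass (log2 change -0.03 ± 0.13 SE, edgeR adjusted p = 0.876). Slc16a3 had 112 and 136 CPM in controls and 109 and 127 CPM in mutants, and it did not pass either (adjusted p = 0.173). The genotypes overlapped for both. Slc2a3 passed, with 1.56 and 1.73 CPM in controls and 2.98 and 5.45 CPM in mutants (log2 change 1.08 ± 0.302 SE, edgeR adjusted p = 0.0476). These levels are near those of erythroid-like cells of the same libraries, which had 1.81 and 1.59 CPM in controls and 1.88 and 4.64 CPM in mutants. Thinned to 2000 UMIs per cell, 0.238% and 0.286% of control and 0.650% and 0.833% of mutant chondrocyte-like cells had a Slc2a3 UMI, and in erythroid-like cells the share reached 0.886%. By library the erythroid-like shares were 0% and 0.309% in controls and 0% and 0.886% in mutants, so the cartilage share was above them at day 13 and below them at day 19. At these levels Slc2a3 in cartilage is not read as expression, although it is counted among the 7 members that rose. The 14 neutrophil markers in chondrocyte-like cells summed to 85.2 and 232 CPM in controls and to 205 and 633 CPM in mutants, and their part in the Slc2a3 result was not tested.

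Of the first glycolytic steps, the hexokinase Hk2 rose. It had 61.2 and 106 CPM in controls and 163 and 219 CPM in mutants at days 13 and 19. Both mutant libraries were above both controls, 2.66-fold at day 13 and 2.07-fold at day 19 (log2 change 1.05 ± 0.122 SE, edgeR adjusted p = 0.00255). After thinning to 2000 UMIs, 10.997% and 17.3% of control cells and 23.96% and 30.1% of mutant cells had an Hk2 UMI, against at most 0.997% of erythroid-like cells. Without clusters 4 and 15 the log2 change was 0.38 and did not pass (edgeR adjusted p = 0.0579). Unthinned, the chondrocyte-like shares were 45.2%, 63.2%, 60.1% and 65.3% at median depths of 11783, 16625, 10757 and 9530 UMIs. Hk1, the constitutive hexokinase, was at 47.9 and 66.7 CPM in controls and 47.0 and 62.6 CPM in mutants, and it did not pass (adjusted p = 0.185).

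Pfkl, the liver-type phosphofructokinase that commits sugar to glycolysis, fell. It had 97.3 and 98.2 CPM in controls and 80.3 and 74.4 CPM in mutants, so both mutant libraries were below both controls (log2 change -0.52 ± 0.112 SE, edgeR adjusted p = 0.0206). Pfkm and Pfkp, the muscle and platelet types, did not pass (adjusted p = 0.203 and 0.426). Aldoc, one of the aldolases that split the sugar, also fell, from 43.96 and 20.01 CPM in controls to 18.5 and 15.2 CPM in mutants (log2 change -1.03 ± 0.235 SE, edgeR adjusted p = 0.0255). The plain ratio was 2.37-fold lower at day 13 and 1.32-fold lower at day 19. Aldoc was highest in control cluster 11, with 90.1 and 38.1 CPM, and this cluster held 13 and 6 mutant cells. Gpi1, Aldoa and Tpi1 did not pass. Aldoa, for example, had 545 and 522 CPM in controls and 591 and 584 CPM in mutants (edgeR adjusted p = 0.854).

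None of the later steps or lactate dehydrogenases passed in the class as a whole. Gapdh had 1244 and 1434 CPM in controls and 1139 and 1179 CPM in mutants (log2 change -0.39 ± 0.143 SE, edgeR adjusted p = 0.107). Pgam1, a mutase, had 652 and 763 CPM in controls and 585 and 664 CPM in mutants (adjusted p = 0.107). Pgk1 lay between 605 and 647 CPM in all 4 libraries, and Pkm, the pyruvate kinase, between 1040 and 1182 CPM. In clusters 2, 8 and 11 alone, Gapdh and Ldha fell (edgeR adjusted p = 0.0190 and 0.0459). Cluster 11 gave 986 and 275 control but 13 and 6 mutant cells to that pool, and in cluster 8 taken alone Ldha rose. Eno1, an enolase, had 98.3 and 178 CPM in controls and 127 and 134 CPM in mutants, so the mutant library was higher at day 13 and lower at day 19. Ldha had 957 and 1073 CPM in controls and 925 and 956 CPM in mutants (adjusted p = 0.191), and Ldhb 87.2 and 59.3 CPM against 88.2 and 83.7 CPM (adjusted p = 0.796). Gapdh, Pgk1, Ldha and Eno1 have near-identical copies elsewhere in the genome, and how their reads were split is uncertain.

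Among the kinases that set the flow, Pfkfb3 rose. It had 16.2 and 22.6 CPM in controls and 40.3 and 62.0 CPM in mutants, 2.50-fold and 2.74-fold higher at days 13 and 19 (log2 change 1.20 ± 0.132 SE, edgeR adjusted p = 0.00201). Both mutant libraries were above both controls. After thinning, 3.59% and 4.10% of control cells and 7.02% and 9.62% of mutant cells had a Pfkfb3 UMI, against at most 0.886% of erythroid-like cells. Pfkfb4, a relative of Pfkfb3, was at 6.13 and 5.48 CPM in controls and 7.45 and 6.92 CPM in mutants and did not pass (adjusted p = 0.680). Pdk1, which holds pyruvate back from mitochondria, did not pass either, with 33.3 and 36.3 CPM against 42.4 and 44.2 CPM (adjusted p = 0.460).

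Among the members grouped as HIF feedback and transcription was the gene with the largest change, Ankrd37. Ankrd37, a small ankyrin-repeat gene known as a HIF-1 target, had 4.36 and 9.04 CPM in controls and 23.6 and 36.7 CPM in mutants. It was 5.41-fold higher at day 13 and 4.06-fold higher at day 19, and the genotypes did not overlap (log2 change 2.05 ± 0.150 SE, edgeR adjusted p = 0.000566). After thinning, 1.19% and 2.48% of control cells and 4.75% and 6.88% of mutant cells had an Ankrd37 UMI, with at most 1.27% of erythroid-like cells. The control share at day 13 is thus near background, while that at day 19 and the mutant shares are above it. Egln3, the prolyl hydroxylase that HIF itself induces, had 3.59 and 3.91 CPM in controls and 6.81 and 10.1 CPM in mutants (log2 change 0.95 ± 0.221 SE, edgeR adjusted p = 0.0270). Its level in the mutants rests on 247 and 308 UMIs. In clusters 2, 8 and 11 alone its log2 change was -0.19 (edgeR adjusted p = 0.797). Egln1, the main oxygen sensor of the pathway, had 93.9 and 126 CPM in controls and 94.4 and 111 CPM in mutants and did not pass (adjusted p = 0.140). Bhlhe40, a repressor that hypoxia and other signals induce, rose from 70.3 and 71.0 CPM to 118 and 134 CPM (log2 change 0.65 ± 0.127 SE, edgeR adjusted p = 0.0153).

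Of the members that act on mitochondria and lipid droplets, Bnip3, a receptor for the removal of mitochondria, fell by the test. It had 148 and 190 CPM in controls and 135 and 149 CPM in mutants, and the mutant library at day 19 lay above the control at day 13 (log2 change -0.42 ± 0.115 SE, edgeR adjusted p = 0.0438). Of 14 settings of the analysis, 6 gave the Bnip3 call. Higd1a, a small protein of the respiratory chain, had 1108 and 1212 CPM in controls and 1188 and 1371 CPM in mutants and did not pass (adjusted p = 0.865). Hilpda, a lipid droplet protein, had 31.8 and 60.9 CPM against 32.9 and 56.5 CPM (adjusted p = 0.244).

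P4ha1 and P4ha2 are the catalytic subunits of the prolyl hydroxylase that stabilises the collagen triple helix. P4ha2 fell, from 236 and 267 CPM in controls to 184 and 184 CPM in mutants, and the genotypes did not overlap (log2 change -0.63 ± 0.118 SE, edgeR adjusted p = 0.0127). P4ha1 had 260 and 408 CPM in controls and 282 and 251 CPM in mutants. It did not pass (log2 change -0.47 ± 0.183 SE, edgeR adjusted p = 0.118), and the control library at day 19 stood above the others. Ero1l, which oxidises disulfide bonds in the endoplasmic reticulum, had 30.4 and 38.1 CPM against 36.2 and 45.9 CPM (adjusted p = 0.685). Of the remaining hypoxia-induced genes, Ndrg1 rose from 19.9 and 25.5 CPM to 45.0 and 52.8 CPM (log2 change 0.93 ± 0.119 SE, edgeR adjusted p = 0.00347). Adm had 2.87 and 3.76 CPM against 5.63 and 5.28 CPM and did not pass (adjusted p = 0.126).

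**Figure D3:**
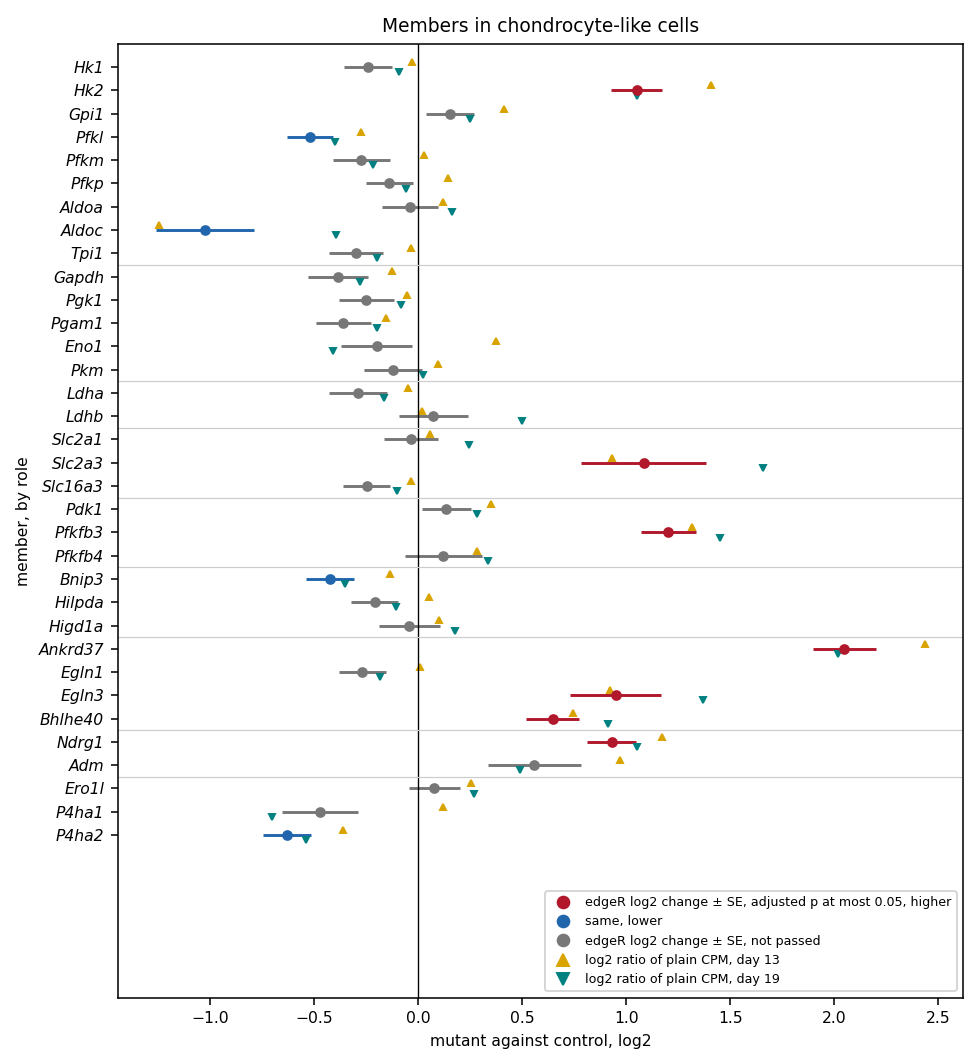
Mutant against control for each member (y axis, by role) in chondrocyte-like cells on a log2 scale (x axis): filled points are edgeR changes ± SE over 4 libraries, coloured where the adjusted p is at most 0.05, and triangles are plain CPM ratios at day 13 (pointing up) and day 19 (pointing down). Ankrd37 (2.05), Pfkfb3 (1.20) and Hk2 (1.05) lie far to the right, Aldoc (-1.03) lies far to the left, and most enzymes lie just left of 0.

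Other signals moved with genotype in the same sums. Osteoblast markers (14 genes, none at 0) summed to 4588 and 3545 CPM in controls and to 15847 and 11150.0 CPM in mutants. Fibroblast and tendon markers (13 genes, none at 0) summed to 1900.2 and 1675 CPM in controls and 5919 and 5139 CPM in mutants. Immediate early genes (8 genes, none at 0), which tissue digestion is known to induce, summed to 2044 and 2199 CPM in controls and 3169.8 and 3031 CPM in mutants. The part of these signals in the changes of Hk2, Pfkfb3, Ankrd37, Ndrg1 and Bhlhe40 was not tested. Haemoglobin genes (4 genes) summed to 2713 and 13392 CPM in controls and 1218.5 and 9113 CPM in mutants, higher at day 19 in both genotypes.

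In cluster 8, led by Pcp4, Ucma and Sfrp5, 16 of 33 members tested rose in mutants and 1 fell, where 6.28% of 10570 genes rose and 5.69% fell. Those that rose were Tpi1, Pgk1, Eno1, Pkm, Ldha, Slc2a1, Slc16a3, Pdk1, Pfkfb3, Bnip3, Ankrd37, Hilpda, Ndrg1, Higd1a, Ero1l and P4ha2. Ldhb was the member that fell. The median log2 change was 0.69 for the members and -0.0058 for all genes tested. The control libraries gave 1028 and 249 cells and the mutant libraries 131 and 345.

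In this cluster Ldha had 398 and 424 CPM in controls and 935 and 1016 CPM in mutants (log2 change 1.11 ± 0.189 SE, edgeR adjusted p = 0.00287). Pgk1 had 289 and 237 CPM in controls and 626 and 581 CPM in mutants (log2 change 1.07 ± 0.184 SE, edgeR adjusted p = 0.00304). Slc16a3 had 20.8 and 14.7 CPM in controls and 111 and 117 CPM in mutants (log2 change 2.53 ± 0.192 SE, edgeR adjusted p = 1.49e-05). In each case the mutant libraries stood well above both controls, so the enzyme that makes lactate and the transporter that exports it both rose. Slc16a3 was among the genes that shaped the clusters. P4ha2 had 76.5 and 93.4 CPM in controls and 254 and 212 CPM in mutants (log2 change 1.33 ± 0.181 SE, edgeR adjusted p = 0.000642), opposite to its fall in the class. Bnip3, too, fell in the class but rose here, from 71.5 and 63.4 CPM to 130 and 127 CPM (edgeR adjusted p = 0.00745). Ldhb went down, from 120 and 102 CPM to 68.6 and 71.4 CPM (log2 change -0.79 ± 0.167 SE, edgeR adjusted p = 0.00989). Hk2, which rose in the class, had 93.8 and 189 CPM in controls and 159 and 204 CPM in mutants here.

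The mutant cells of cluster 8 also differed from its control cells in other genes. Ihh, the hedgehog ligand of prehypertrophic cartilage, was at 1.40 and 0 CPM in controls and 115 and 44.9 CPM in mutants. Panx3 was at 14.9 and 3.61 CPM in controls and 98.4 and 78.7 CPM in mutants, and Ppa1 at 175 and 174 CPM against 699 and 429 CPM. Osteoblast markers in the cluster summed to 1482 and 1564 CPM in controls and 4825 and 3436 CPM in mutants, with at most 2 of 14 genes at 0. Sfrp5, a leading gene of the cluster, was at 248 and 212 CPM in controls and 141 and 103 CPM in mutants. A different kind of cell and a change within a cell cannot be told apart in cluster 8.

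When the members and other pathway genes were left out of the clustering, the cells regrouped. The cluster that shared most cells with cluster 8 then held 22 and 56 mutant cells, too few at day 13 for a test. Of the 476 mutant cells of cluster 8, 364 (76.5%) went to another cluster, which had 126 and 88 control and 170 and 347 mutant cells. In that cluster 11 of 33 members rose (Tpi1, Pgk1, Eno1, Pkm, Ldha, Slc16a3, Bnip3, Ankrd37, Higd1a, P4ha2 and Pfkfb3) and Ldhb fell, where 1.12% of 9480 genes rose and 0.949% fell. Ldha there had 419 and 486 CPM in controls and 1247 and 1191 CPM in mutants (log2 change 1.39 ± 0.210 SE, edgeR adjusted p = 0.0154). In these regrouped cells Ihh was at 213 and 157 CPM in its control cells and at 529 and 309 CPM in its mutant cells. Col10a1, the collagen of hypertrophic cartilage, was lower in the mutant cells, with 10218 and 3459 CPM in controls and 5015 and 1799 CPM in mutants, and so was the matrix gene Spp1, with 5257 and 3885 CPM against 3075 and 1223 CPM. The genotypes thus differed here in markers of maturation as well, and their part in the members' changes was not tested. Of the 1277 control cells of cluster 8, 156 had gone to this cluster. With each cell of cluster 8 thinned to 5000 UMIs, 12 of 30 members rose and Ldhb fell, where 5.2% of genes rose and 4.63% fell.

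The other shared clusters showed fewer changes. In cluster 0, led by the surface-zone genes Prg4 and Cilp, Hk2, Egln3 and Pfkfb3 rose and none fell among 33 members, where 2.91% of genes rose and 2.12% fell. The 28 chondrocyte markers in this cluster summed to 109193 and 118900 CPM in controls and to 55323 and 63230 CPM in mutants. Egln3 had 10.3 and 10.1 CPM in controls and 22.03 and 27.7 CPM in mutants (log2 change 1.25 ± 0.265 SE, edgeR adjusted p = 0.0167). In cluster 2, led by Frzb and Matn1, only Hk2 rose among 31 members, from 52.2 and 67.1 CPM to 88.7 and 108 CPM (edgeR adjusted p = 0.0272), where 2.23% of genes rose and 1.42% fell. With 5000 UMIs per cell, only Pfkfb3 rose and Hilpda fell in cluster 0, where 3.53% of genes rose and 2.25% fell. In the cluster matched to cluster 0 with members left out of the clustering, Hk2, Egln3 and Pfkfb3 again rose and none fell. With 5000 UMIs per cell in cluster 2, Hk2 rose and Pfkl and Slc2a1 fell. Shares of all genes that passed are not given for these added fits. In the cluster matched to cluster 2 when members were left out of the clustering, none rose and Pfkl and Hilpda fell, where 4.4% of genes rose and 3.0% fell.

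In cycling cluster 20, 5 of 34 members rose and 5 fell, where 10.5% of 10334 genes rose and 8.71% fell. Hk2, Ankrd37, Ndrg1, Bhlhe40 and Pfkfb3 rose, and Aldoc, Bnip3, Egln1, P4ha1 and P4ha2 fell. Ankrd37, for example, had 6.60 and 8.78 CPM in controls and 24.7 and 27.5 CPM in mutants (log2 change 1.62 ± 0.278 SE, edgeR adjusted p = 0.000249). P4ha2 had 234 and 273 CPM in controls and 190 and 182 CPM in mutants (log2 change -0.60 ± 0.146 SE, edgeR adjusted p = 0.00586). Enzymes of the later steps did not pass in cycling cells: Ldha, for example, had 1152 and 1219.7 CPM in controls and 1057 and 1047 CPM in mutants. At 5000 UMIs per cell, Ankrd37 and Pfkfb3 alone passed there, where 6.4% of 6218 genes rose and 4.33% fell. With members left out of the clustering, the matched cluster held 98.1% of the cells of cluster 20. In it the same 5 members rose and the same 5 fell, and the share of all genes that passed is not given. Cells of cluster 20 differed between genotypes in other genes too. Ppa1 was at 1540 and 2017 CPM in controls and 366 and 208 CPM in mutants. Osteoblast markers summed to 1758 and 1963 CPM against 9812 and 5704 CPM. Fibroblast and tendon markers summed to 809 and 833 CPM against 4131 and 3058 CPM. A different kind of cell and a change within a cell cannot be told apart here either.

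**Figure D4:**
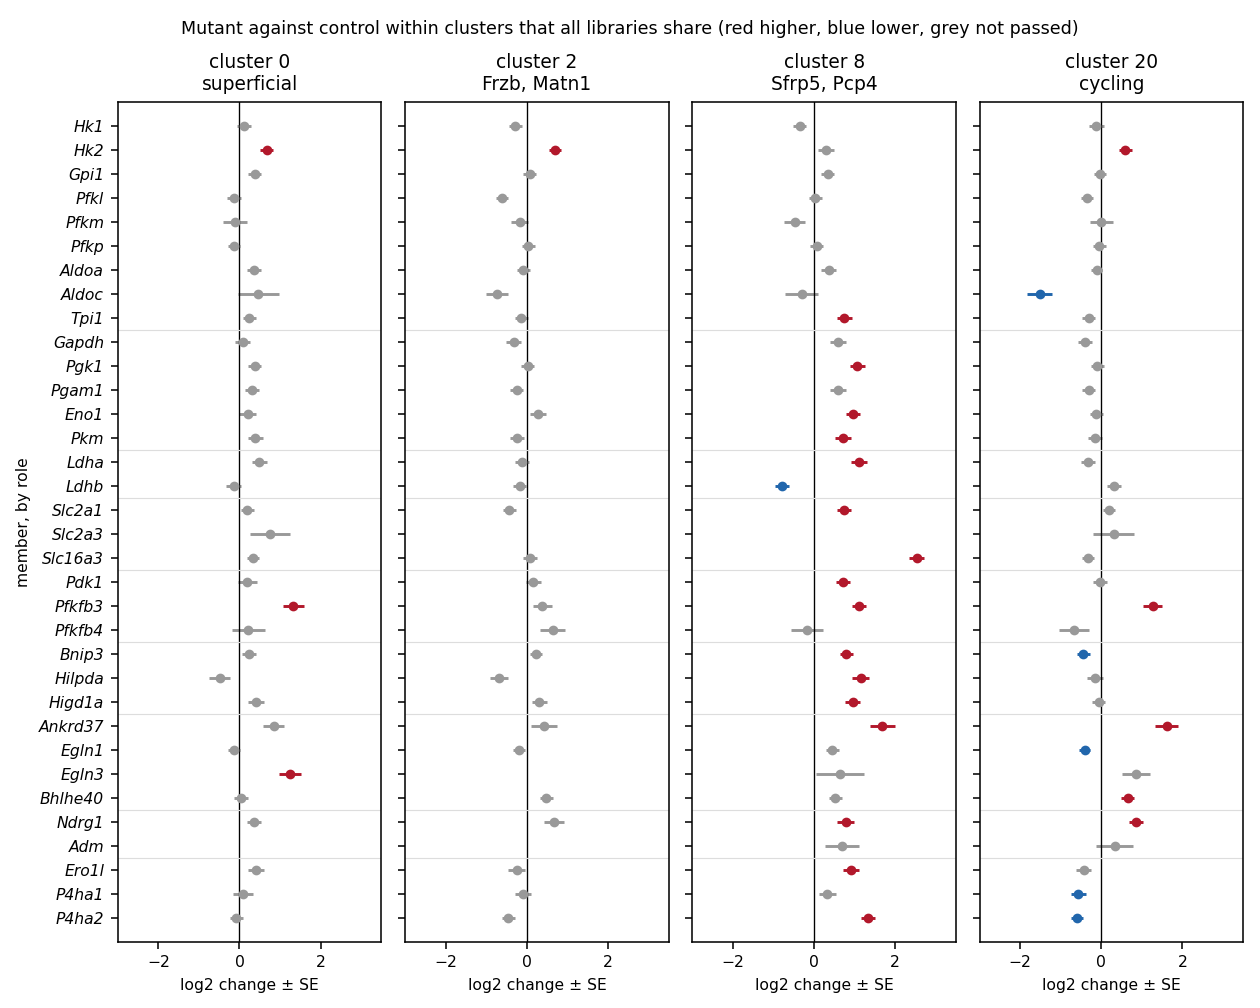
Mutant against control within the clusters shared by all libraries (panels), with edgeR log2 changes ± SE (x axis) for each member by role (y axis), coloured where the adjusted p is at most 0.05. In cluster 8 most members lie to the right of 0 and Ldhb to the left, while in clusters 0 and 2 few members are coloured and in cluster 20 coloured points lie on both sides.

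The genotype effect was also compared between clusters directly, with the 4 libraries as blocks. These contrasts use the same counts and clusters that gave cluster 8 its many calls, so they are no separate support. It was higher in cluster 8 than in cluster 0 for 8 of 34 members (Gapdh, Pgk1, Eno1, Ldha, Slc16a3, Hilpda, Higd1a and P4ha2), where 3.03% of 10640 genes were higher and 3.99% lower. Against cluster 2 it was higher for 15 of 33 members and lower for Ldhb, where 5.24% of genes were higher and 5.11% lower. Against cluster 20 it was higher for 19 of 34 and lower for Ldhb, where 9.17% were higher and 8.94% lower. For P4ha2 the log2 change in cluster 8 exceeded that in cluster 0 by 1.40 ± 0.168 SE (edgeR adjusted p = 2.58e-05). For Ldha the difference from cluster 0 was 0.62 ± 0.144 SE (edgeR adjusted p = 0.0116). For Hk2 none of the 3 differences passed.

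Isozymes of 1 step can be set against each other within a library, as a share of their summed UMIs. Hk2 made up 56.1% and 61.3% of Hk1 and Hk2 UMIs in control chondrocyte-like cells at days 13 and 19, and 77.6% and 77.8% in mutant ones. The exact 95% binomial intervals end at 62.9% or below in controls and begin at 76.6% in mutants. They cover counting error alone, and the shares of the class compare different mixtures. Clusters 4 and 15 held 71.3% and 65.6% of mutant but 1.31% and 2.16% of control cells, and their part in the Hk2 share was not tested. By cluster the Hk2 share ran from 40.2% (cluster 0, control, day 13) to 85.0% (cluster 15, mutant, day 19). Pfkl made up 57.5% and 48.8% of the UMIs of Pfkl, Pfkm and Pfkp in controls and 50.7% and 43.4% in mutants, with Pfkp the larger part of the rest. Aldoc made up 7.46% and 3.69% of Aldoa and Aldoc in controls and 3.03% and 2.53% in mutants. Both shares were lower at day 19 than at day 13 in each genotype.

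The Ldhb share also differed between the clusters of cartilage. It made up 1.90% and 1.39% of Ldha and Ldhb UMIs in control cluster 11, 19.4% and 14.2% in control cluster 2, and 23.1% and 19.4% in control cluster 8. In mutant cells of cluster 8 the share was 6.84% and 6.57%, below the controls by more than the counting intervals, which end at 8.02% in mutants and begin at 17.7% in controls. In cluster 2 the mutant shares, 16.4% and 15.9%, lay between the 2 control values. Slc2a3 made up 74.9% to 87.6% of Slc2a1 and Slc2a3 UMIs in neutrophil-like cells and 1.94% to 5.02% in chondrocyte-like cells.

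**Figure D5:**
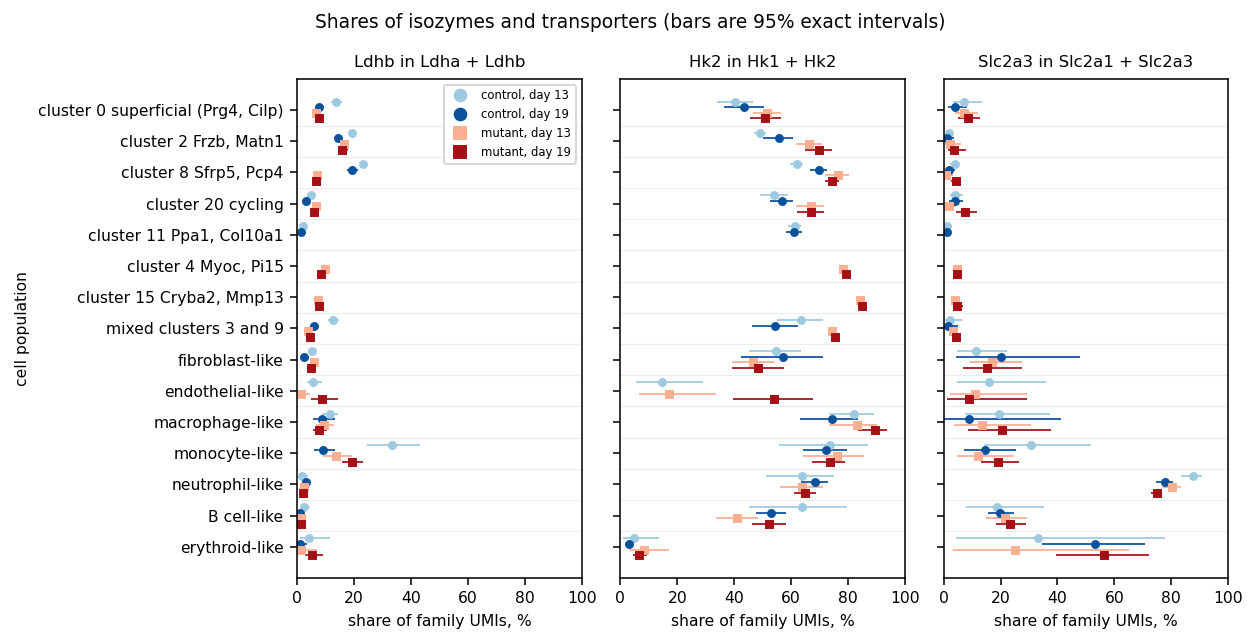
Share of an isozyme or transporter in the summed UMIs of its family (x axis, percent from 0 to 100, 1 panel per family) in each cell population (y axis), with 1 point per library (circles control, squares mutant) and exact 95% binomial intervals. Chondrocyte-like cells are drawn by cluster, without a row for the class as a whole. The Ldhb share of cluster 8 is 6.84% and 6.57% in mutant against 23.1% and 19.4% in control cells.

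Outside the chondrocyte-like class few members passed. In the mixed clusters 3 and 9 together, Hk2, Slc16a3, Ankrd37 and Pfkfb3 rose and Ldhb fell among 34 members, where 4.64% of genes rose and 4.47% fell. Ankrd37 had 5.46 and 6.76 CPM in controls and 47.2 and 61.1 CPM in mutants there (log2 change 2.98 ± 0.292 SE, edgeR adjusted p = 2.02e-07). Cluster 9 gave 878 and 518 of the mutant but 54 and 20 of the control cells, so the mixture again differs. In cluster 3 alone Hk2, Ankrd37 and Ndrg1 rose and Pfkl and P4ha2 fell, where 4.27% of genes rose and 4.06% fell. With 5000 UMIs per cell, Pfkl alone passed in cluster 3, where 2.29% of genes rose and 2.77% fell. In the cluster matched to cluster 3 with members left out of the clustering, Hk2, Ankrd37 and Pfkfb3 rose and Pfkl and P4ha2 fell. The share of all genes that passed is not given for that fit.

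In neutrophil-like cells Slc2a1 and Ndrg1 rose among 31 members, where 2.72% of genes rose and 1.14% fell. Slc2a1 had 56.0 and 59.4 CPM in controls and 88.6 and 113 CPM in mutants (log2 change 0.86 ± 0.244 SE, edgeR adjusted p = 0.0217). The class joins cluster 1 (led by Ngp and Camp), with 77 and 318 control and 184 and 749 mutant cells, and cluster 21 (led by Cxcl2 and Il1b), with 206 and 180 control and 301 and 661 mutant cells. Taken one at a time, neither cluster gave a call for Slc2a1 (edgeR adjusted p = 0.219 and 0.222) or Ndrg1 (0.484 and 0.137). Of all genes 0.706% rose and 0.169% fell in cluster 1, and 1.55% and 0.951% in cluster 21. Slc2a1 had 28.2 and 45.6 CPM in controls and 49.9 and 79.5 CPM in mutants in cluster 1, and 86.0 and 155 CPM against 157 and 222 CPM in cluster 21. Hilpda fell in monocyte-like cells, but 1 library carried this: the control at day 13 had 116 CPM and the others 16.4 to 18.4 CPM. In this class 1.07% of genes rose and 0.701% fell. In B cell-like, erythroid-like, fibroblast-like and macrophage-like cells 0 members passed the edgeR test, with 8, 8, 4 and 1 at an unadjusted p under 0.05. Of all genes 1.51% rose and 0.748% fell in B cell-like cells, 2.09% and 1.06% in erythroid-like, 0.635% and 0.268% in fibroblast-like and 0.526% and 0.808% in macrophage-like cells.

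Between ages, in chondrocyte-like cells 0 of 34 passed the edgeR test for day 19 against day 13, where 0.206% of genes were higher and 0.0% lower. At an unadjusted p under 0.05 there were 10, and DESeq2 called Hilpda higher and none lower, where it called 0.771% and 0.0922% of genes. Hilpda had 31.8 CPM at day 13 and 60.9 CPM at day 19 in controls, and 32.9 and 56.5 CPM in mutants (log2 change 0.81 ± 0.115 SE, edgeR adjusted p = 0.0772). Ankrd37 was 2.07-fold higher at day 19 in controls and 1.55-fold in mutants (edgeR adjusted p = 0.159), and Hk2 1.72-fold and 1.35-fold (adjusted p = 0.212). These 3 genes were higher at day 19 in both genotypes. The mixture of clusters in the class differed between ages as well. In controls, cluster 2 gave 1680 of 4289 cells at day 13 and 200 of 1063 at day 19, and cluster 20 gave 226 and 129. The part of the mixture in the age values was not tested. P4ha1 was 1.57-fold higher at day 19 in controls but 0.888 times its day 13 level in mutants (adjusted p = 0.882). In cluster 20 Hk2 and Hilpda passed for age, where 0.871% of genes were higher and 0.232% lower at day 19.

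Among genes that control the HIF pathway, of 7 tested (Hif1a, Epas1, Arnt, Vhl, Hif1an, Egln2 and Cited2), 0 passed the edgeR test for genotype, where 11.6% of all genes rose and 10% fell. At an unadjusted p under 0.05 there were 3, and DESeq2 called 0, where it called 7.99% of all genes higher and 7.46% lower. Hif1a had 254 and 373 CPM in controls and 464 and 434 CPM in mutants (log2 change 0.36 ± 0.160 SE, edgeR adjusted p = 0.159). Cited2, which competes with HIF for its coactivator, had 31.8 and 46.6 CPM against 30.9 and 32.3 CPM (adjusted p = 0.0567). Of 23 further HIF targets 7 rose and 4 fell. Car12, a carbonic anhydrase, fell from 57.2 and 83.1 CPM to 5.96 and 8.86 CPM (log2 change -3.43 ± 0.135 SE, edgeR adjusted p = 0.000253), and it is a leading gene of the control cluster 11. Angptl4, a secreted inhibitor of lipoprotein lipase, rose from 4.38 and 4.62 CPM to 34.04 and 30.8 CPM (edgeR adjusted p = 0.000253). Car9 rose from 3.28 and 3.40 CPM to 21.5 and 15.7 CPM, and Stc2 fell from 28.5 and 24.2 CPM to 6.65 and 11.7 CPM. Vegfa, Ddit4, Kdm3a and Lox were among the others that rose, and Slc16a1 and Loxl2 fell. The further targets, like the members, thus moved in both directions.

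Lists of neighbouring paths of sugar use are to be read against the same shares, 11.6% of all genes that rose and 10% that fell. Of 14 other isozymes tested 3 rose and none fell. Eno2, the neuronal enolase, rose from 1.35 and 1.07 CPM to 11.01 and 12.9 CPM (log2 change 3.06 ± 0.247 SE, edgeR adjusted p = 0.000740). Pgam2 and Eno3, muscle forms, rose too. Of 29 genes that bring pyruvate into mitochondria or run the citric acid cycle, Pdk4 rose and Idh3a, Sdhd and Mpc1 fell. Pdk4, a relative of Pdk1, had 1.52 and 3.40 CPM in controls and 7.39 and 9.42 CPM in mutants (edgeR adjusted p = 0.00527). Of 17 genes of the pentose phosphate path and glycogen use, Pygm rose and Pygl, Taldo1, Tkt and Ugp2 fell. Pygl, a glycogen phosphorylase, fell from 58.2 and 71.2 CPM to 26.9 and 29.8 CPM (log2 change -1.37 ± 0.116 SE, edgeR adjusted p = 0.000844). Taldo1, the transaldolase, fell from 117 and 194 CPM to 78.8 and 83.5 CPM. For age, Bpgm alone passed among these 5 lists, with 15.8 and 36.9 CPM at days 13 and 19 in controls and 14.3 and 31.1 CPM in mutants (edgeR adjusted p = 0.0422), where 0.206% of all genes were higher at day 19. Bpgm was also a leading gene of erythroid-like clusters, and haemoglobin in chondrocyte-like sums was likewise higher at day 19.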

How the data were processed

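Single-cell RNA libraries were made with the Chromium v3 3′ chemistry, per the labels' protocols, and each of the 4 genotype and age groups is 1 library. The deposited matrices hold whole-number UMI counts per gene and barcode, made with Cell Ranger 3.1.0 per the file headers. The submitters' processing notes name mm10 and Seurat 3. No label says whether counting used strand or which other filters the authors applied. The design text also names other mutants and a later age, and the sample labels were followed.

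Barcodes stayed in with 500 genes or more and with mitochondrial UMIs of 15% or less. Scrublet marked doublets at a score of 0.25, a value chosen after its automatic threshold failed in the control libraries (133, 148, 153 and 310 called, 1.64% to 2.67% of scored barcodes). Cells were clustered with scanpy 1.11.5 (2000 variable genes, 30 components, 15 neighbours, Leiden resolution 1.0). Clusters were named from markers when at least 3 were among 25 leading genes. A further rule for chondrocyte-like clusters (at least 10 markers at 3-fold or more over blood clusters) placed clusters 0, 4, 15 and 20, none of which had 3 leading markers, and a rule of at least 20 placed the mixed clusters. Cluster 6, with 13, was named fibroblast-like from its leading genes. Both were set after the clusters were seen, so names are rebuilt and not the authors'.

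Raw counts were summed per library and population with at least 50 cells and tested with edgeR 4.0.16 (quasi-likelihood, TMM, default expression filter, genotype plus age, 1 residual degree of freedom, Benjamini-Hochberg over all genes tested, threshold 0.05), with DESeq2 1.42.0 as an alternative. The scripts were tested on simulated data. Nothing says which mice made a library, so p-values do not measure spread between mice. Shares have exact (Clopper-Pearson) 95% intervals, which cover counting error only. A count of 0 allows up to 3 counts. Aldoa has 2 rows, and the one with 6 UMIs was not used. Members were all named, by role. From other lists up to 4 genes were named by size of change. Genes that mark cluster 8, further passing genes of the lists, and examples from clusters were picked with their values in view. The members and lists were chosen with earlier results of these data known. Promoter windows for Slc2a3, Ndrg1 and Bhlhe40 were not analysed here.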

Additional observations from a re-analysis of the deposited data

Results flagged for a closer look

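Eno1 and P4ha1 had plain ratios of opposite sign at the 2 ages in chondrocyte-like cells, and the difference was not tested. Mutant against control, Eno1 had a log2 ratio of 0.37 at day 13 but of -0.41 at day 19 (0.12 and -0.52 with TMM scaling). P4ha1 had 0.12 at day 13 and -0.71 at day 19, and with TMM scaling the day 13 value turned to -0.13 while day 19 gave -0.82.

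The genotype effect differed between clusters by a test of the difference itself. It was higher in cluster 8 than in cluster 0 for 8 members, where 3.03% of all genes were higher and 3.99% lower. Against cluster 2 it was higher for 15 members and lower for 1 (Ldhb), where 5.24% of genes were higher and 5.11% lower. Against cluster 20 it was higher for 19 members and lower for 1 (Ldhb), where 9.17% were higher and 8.94% lower. For Bnip3 the effect in cluster 8 exceeded that in cluster 20 by 1.22 (edgeR adjusted p = 1.20e-11), and for P4ha2 by 1.91 (edgeR adjusted p = 1.57e-31). These 2 members fell in cluster 20 and rose in cluster 8. The p-values rest on dispersion shared across genes, with 1 library per genotype and age. The contrasts re-use the counts that gave cluster 8 its calls, on clusters that Slc16a3 helped to shape. They were not run with members left out of the clustering, where the best match to cluster 8 held 22 and 56 mutant cells. Mutant cells of cluster 8 also differed from its control cells in Ihh, Panx3 and Ppa1.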

How the results depend on the processing

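No paired analysis was possible because each genotype and age is 1 library and the labels give no replicate numbers, and no library could be left out for the same reason. Across 14 settings of the genotype test in chondrocyte-like cells, Pfkl, Ankrd37, Ndrg1, Bhlhe40 and Pfkfb3 passed in all 14, Hk2 and Aldoc in 13, Egln3 and P4ha2 in 12, Slc2a3 in 9 and Bnip3 in 6. Hilpda passed in 2 and P4ha1, Tpi1, Gapdh, Ldha and Slc16a3 in 1, though not in the setting reported. Egln3 turned to -0.19 with clusters 0, 4, 15 and 20 left out, where it did not pass. The settings that leave out clusters, or add the mixed ones, were chosen after seeing the data. The count of members that fell, 4 as reported, was 2 with all skeletal-lineage cells, 2 without the age term, 2 with the mixed clusters added and 8 with clusters 0, 4, 15 and 20 left out, and the cause was not tested. The age count, 0 as reported, was 1 (Hilpda, higher) with RLE factors, DESeq2, at least 200 genes per barcode, doublets kept, Leiden resolution 0.5 and all skeletal-lineage cells. It was 2 (Ankrd37 and Hilpda, higher) with at most 10% mitochondrial UMIs, and 6 with no filter on low counts, of which 5 were higher and 1 (Aldoc) lower. In other cell classes 2 members fell as reported and 1 with RLE factors. The members' median plain log2 ratio at day 13, 0.098, became -0.15 with TMM scaling, 0.24 with cells weighted equally and 0.19 with all skeletal-lineage cells. At day 19 it was -0.018, and -0.13 with TMM scaling, 0.17 with cells weighted equally, 0.11 with all skeletal-lineage cells and -0.13 with at least 1000 genes per barcode. Depth limits Slc2a3, Egln3, Adm and Pfkfb4, which have few UMIs in cartilage.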
